A study of Mus musculus with 21 samples.

Results

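B cells sorted as HEL pos from BCL2 mice were compared between the mesenteric lymph nodes, which drain the gut, and the spleen, which filters blood. The comparison was chosen with earlier results of these data known. It rests on 6 of the 21 RNA-seq libraries of the series, taken by their labels, and on all genes counted in them. They are 3 of mesenteric node and 3 of spleen, each set numbered 922, 926 and 950. All mice were C57BL/6 and aged 8 to 12 weeks, mice of a group shared a cage, and no treatment is named. Cells went from the sorter straight into TRIzol. The comparison groups were HEL pos cells without the BCL2 label (3 libraries of each tissue, 1 of them named as a pool), HEL neg cells (1 pool of each tissue), and BCL2 HEL pos cells of the Peyer's patches with the same 3 numbers. The labels spell out neither HEL nor the form of the BCL2 allele or the cells that carry it, and they do not say whether a numbered library is 1 mouse, so p-values rest on the spread among libraries that may be technical replicates. The series is described as a study of self-reactive B cells in the gut, and the question here is which genes such cells express differently in the node when BCL2 is present.

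When antigen binds the B cell receptor, kinases of the Src and Syk families relay the signal to calcium, NF-kappaB and MAP kinase pathways, and genes of the Nr4a and Egr families are transcribed within a short time. Cells that keep receiving this signal raise inhibitory receptors and feedback phosphatases, change the receptors that guide them in and out of follicles, and, if they survive, enlarge their nucleolus, ribosomes and metabolism. BCL2 holds mitochondria intact and so protects lymphocytes from apoptosis. Mesenteric nodes are reached through high endothelial venules and are left through sphingosine-1-phosphate receptors.

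The 6 libraries held between 7052369 and 8965504 counts, with 12747 to 15180 genes detected, and 3 counts corresponded to 0.335 to 0.425 CPM, counts scaled by library size. Spearman correlations across genes were 0.984 to 0.99 within a tissue and 0.965 to 0.975 between tissues, and the first principal component, with 51.3% of the variance, separated the tissues. Bcl2 itself was at 182, 145 and 177 CPM in spleen libraries 922, 926 and 950 and at 175, 134 and 158 CPM in the node libraries of the same numbers, with no call between tissues (adjusted p = 0.844). In HEL pos cells its mean was 68.9 ± 18.5 CPM in spleen and 71.9 ± 24.9 CPM in node (SD, n = 3). The B cell label fits the markers: the 11 B cell markers summed to 38540 to 41629 CPM in spleen and 29687 to 32163 CPM in node. Marker sums of T cells were 7.04 to 17.2 CPM in spleen and 4.02 to 7.26 CPM in node, those of monocytes and macrophages were 11.8 to 41.5 and 9.41 to 17.0 CPM, and those of granulocytes did not exceed 0.567 CPM. The 8 erythroid and platelet markers summed to 3.85 to 55.7 CPM in spleen against 0.405 to 1.23 CPM in node, most of it the globin transcript Beta-s. Y-linked transcripts (92.3 to 161 CPM) and Xist (142 to 278 CPM) were both present in each of the 6 libraries. Whether other cells or the sex of the mice took part in a difference was not tested, and in bulk RNA fewer cells of a type and less RNA per cell cannot be told apart.

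Of 11419 genes tested, 1142 (10.0%) differed between node and spleen in BCL2 HEL pos cells at an adjusted p under 0.05. Of these, 659 (5.77%) were higher in the node and 483 (4.23%) were lower, and the median log2 fold change over all genes was -0.02. The counts of called list members given below for these cells have these shares as their background. Changes above 2-fold made up 351 of the calls, 210 higher and 141 lower. The node and spleen libraries did not overlap in 1135 of the 1142, where 33.4% of all genes tested showed such a separation. With the library number as a block, which pairs node and spleen of the same number, 1773 genes were called. Leaving out 1 library gave 561 calls without node 926, 679 without spleen 926 and 741 without spleen 950. In these fits 0 of the 1142 genes changed sign. For the 1135 without overlap a change of sign was hardly possible, so the unchanged signs say little.

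Among the 12 called genes with the highest fold changes, chosen by level and separation of the libraries, Axl stood next after Gpr56, which had no spleen counts. The level was the average over all 18 fitted libraries, not the 6 compared, so a gene with few counts here, such as Gpr56, could pass. Axl encodes a TAM receptor, a kinase that binds GAS6 and helps in clearing apoptotic cells (chromosome 7, 25757273 to 25788705, minus strand, GRCm38). Axl was at 3.33, 3.95 and 4.91 CPM in the spleen libraries and at 81.9, 159.7 and 112 CPM in the node libraries (log2 fold change 4.85, SE 0.31, adjusted p = 6.61e-09). The lowest node library was far above the highest spleen library. The other TAM receptor genes were not tested for want of counts: Tyro3 had 1 count in spleen and 0 in node, and Mertk had 1 count in each. Ccl4, a chemokine that B cells release after receptor stimulation, was at 2.17, 1.74 and 0.929 CPM in spleen and 24.3, 48.4 and 15.5 CPM in node (log2 fold change 4.19, SE 0.52, adjusted p = 2.46e-05). Its neighbour Ccl3 was lower in level but moved alike, from 1.16, 0.349 and 0.398 CPM to 6.67, 11.1 and 2.91 CPM (log2 fold change 3.46, SE 0.78, adjusted p = 0.00587). For both chemokines node library 926 was the highest and node library 950 the lowest, and the tissues stayed apart. Nrgn, which encodes the calmodulin-binding protein neurogranin, rose from 0.579, 0.929 and 0.664 CPM to 7.92, 15.6 and 10.8 CPM (log2 fold change 3.94, SE 0.44, adjusted p = 6.12e-06). The aryl hydrocarbon receptor gene Ahr, whose product senses ligands from diet and microbes, was at 4.05, 8.02 and 6.77 CPM in spleen and 72.0, 47.6 and 37.2 CPM in node (log2 fold change 3.04, SE 0.32, adjusted p = 3.14e-06). Its highest value was in node 922, the library in which Axl was lowest of the node set.

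**Figure D1:**
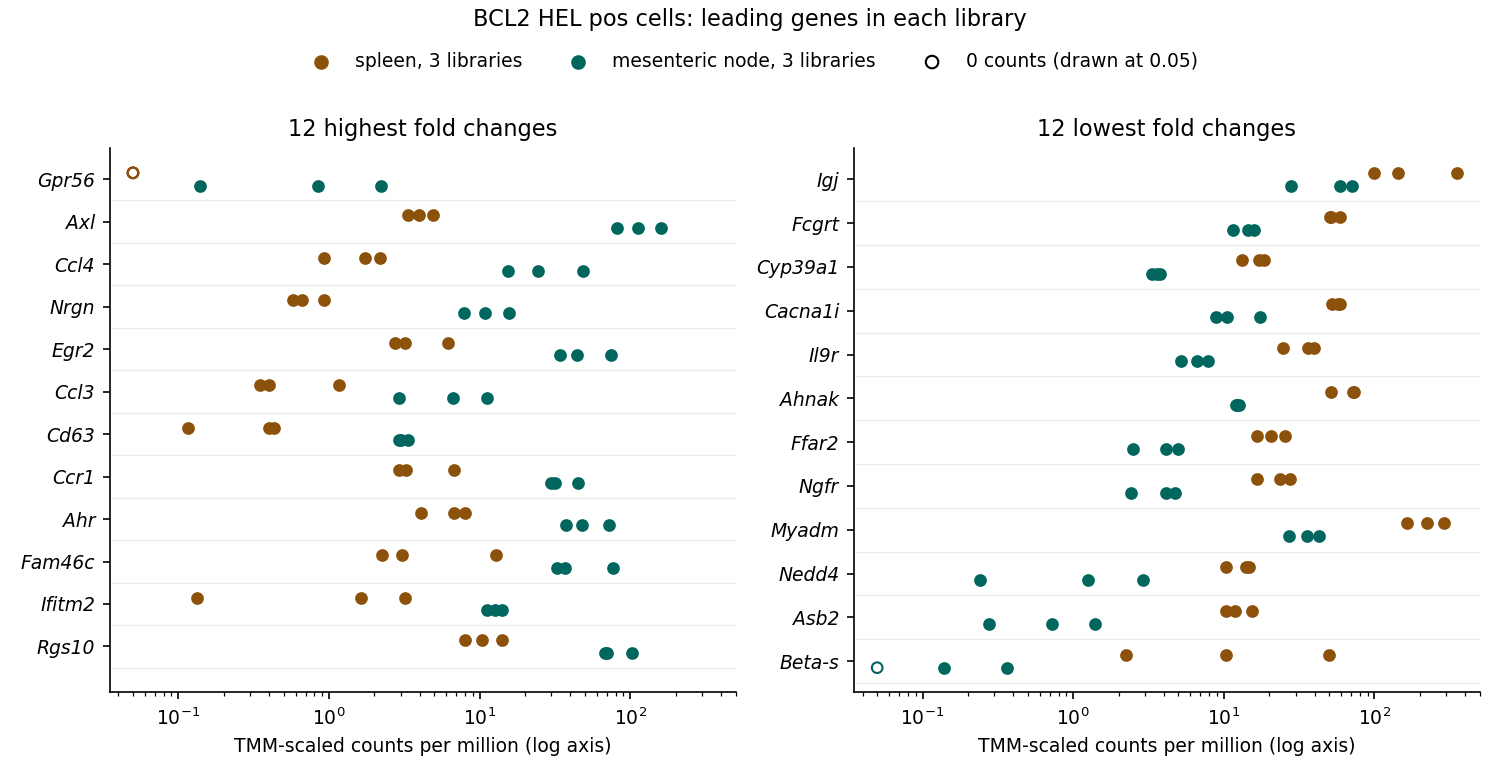
TMM-scaled CPM (log axis) of the 12 genes with the highest and the 12 with the lowest fold changes among called genes, in 3 spleen (brown) and 3 mesenteric node (green) libraries of BCL2 HEL pos cells; open circles are 0 counts. Axl lies at 3.33 to 4.91 CPM in spleen and 81.9 to 159.7 CPM in node, and the 3 node libraries of each gene lie to one side of its spleen libraries, as the choice of genes requires.

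The remaining genes of the highest 12 included the surface and vesicle protein gene Cd63, with 7 counts in all of spleen and 70 in node, and Gpr56, an adhesion G protein-coupled receptor gene, with 0 counts in spleen and 24 in node. Against 3 counts in the 3 spleen libraries together, the limit that a count of 0 allows, Gpr56 was at least 7.85-fold higher, and the 95% counting interval of the ratio, which takes in the error of the node counts too, starts at 5.91. Its call was lost without spleen 922 (adjusted p = 0.056), spleen 926 (0.0719), spleen 950 (0.0607) or node 950 (0.103). Fam46c, a poly(A) polymerase gene active in antibody-secreting cells, was at 3.04, 12.9 and 2.26 CPM in spleen and 32.4, 76.7 and 37.1 CPM in node (log2 fold change 2.97, SE 0.45, adjusted p = 0.000206), with library 926 the highest in both tissues. Counts are per gene symbol as the table gives it, and older symbols such as Gpr56 are kept.

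Most Nr4a, Egr and Nab genes, which follow receptor signalling early, were raised in the node. Of 8 tested members of the Nr4a, Egr and Nab list, 6 were called higher and 0 lower, with a median log2 fold change of 2.13. Egr2, a zinc finger factor that restrains lymphocyte activation (chromosome 10, 67535475 to 67542188, plus strand), was at 2.75, 6.16 and 3.19 CPM in spleen and 44.1, 74.2 and 34.3 CPM in node (log2 fold change 3.63, SE 0.33, adjusted p = 6.89e-07). Egr1 rose from 14.9, 15.3 and 19.6 CPM to 84.1, 72.5 and 48.0 CPM (log2 fold change 2.04, SE 0.25, adjusted p = 1.5e-05). The orphan nuclear receptor gene Nr4a1 (Nur77), widely used as a reporter of receptor signalling, rose from 22.7, 15.7 and 36.4 CPM to 144, 110.4 and 94.8 CPM (log2 fold change 2.23, SE 0.30, adjusted p = 5.18e-05). In each of these the node values were all above the spleen values, with node 950 the lowest of the node set. Nab2, which binds EGR proteins and represses their activity, also rose (log2 fold change 1.74, SE 0.37, adjusted p = 0.00403), so EGR genes and their corepressor rose in the same libraries. Egr3 rose less (log2 fold change 1.24, SE 0.38, adjusted p = 0.0396), and its call was lost without spleen 922 (adjusted p = 0.0541), node 922 (0.17), spleen 926 (0.104), node 926 (0.093) or spleen 950 (0.164). Nr4a3 rested on 7 counts in spleen, all in library 950, and 56 in node, a ratio of 7.85 (95% counting interval 3.57 to 20.4). Its call (adjusted p = 0.0256) was lost without spleen 922 (0.104), spleen 926 (0.119) or node 926 (0.134). Nr4a2 was at 0, 0.116 and 0 CPM in spleen and 1.11, 1.45 and 0.277 CPM in node and was not called (adjusted p = 0.0595), though it was with the number block (0.0191), without node 950 (0.0458), without the filter on low counts (0.00528) and by DESeq2 (0.0246). Nab1, the eighth member, was not called (adjusted p = 0.484).

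The start sites of Egr2 are shown because it has the highest fold change among the called transcription factor genes of this group. Nr4a2, which was not called, had a log2 fold change of 4.04. RefSeq (GRCm38.p6) lists 5 promoter windows for Egr2, each of 250 bases before to 50 bases after a start, and 1 of them holds a CArG box, the element bound by serum response factor, in capitals:
Egr2, chr10:67537619-67537918, + strand: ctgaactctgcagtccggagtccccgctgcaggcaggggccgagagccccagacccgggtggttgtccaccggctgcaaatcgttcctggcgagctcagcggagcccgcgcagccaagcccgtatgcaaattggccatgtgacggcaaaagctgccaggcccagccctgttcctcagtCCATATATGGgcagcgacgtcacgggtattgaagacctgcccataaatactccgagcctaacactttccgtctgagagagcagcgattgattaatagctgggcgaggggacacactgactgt
The CArG box starts 72 bases before the start site. A CArG box was found in 1.52% of the 9171 tested genes with a promoter entry, out of 11419 tested, and in 1.52% of the genes called higher. Besides that box, given by name alone, 9 motifs were searched on both strands. They were the EGR site (GCGTGGGCG or GCGGGGGCG), NBRE (AAAGGTCA), AP-1 site (TGANTCA), CRE (TGACGTCA), NF-kappaB site (by name), E-box (CACGTG) and AHR core (TTGCGTG). In the AP-1 letters N stands for any base, so a match need not be an AP-1 site. The interferon-stimulated response element (ISRE) was GAAA, any 2 bases, GAAA. The endoplasmic reticulum stress response element (ERSE) was CCAAT, any 9 bases, CCACG. An ERSE can overlap an E-box, and the EGR letters can overlap GC-rich repeats. A match is a run of letters and was not tested for binding. The E-box, which MYC and its partners can bind, was found in 101 of 525 genes called higher (19.2%) and in 45 of 381 called lower (11.8%), with 12.1% over all tested genes.

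Beyond this group, the immediate early genes did not move one way. Of 23 tested AP-1 and other immediate early genes, 3 were higher (Batf, Klf10 and Myc) and 1 was lower (Klf6), with a median of -0.18. Batf, an AP-1 partner of IRF4, rose from 39.4, 35.8 and 37.7 CPM to 76.2, 83.1 and 83.8 CPM (log2 fold change 1.11, SE 0.16, adjusted p = 0.000145). Myc, the driver of ribosome production and growth, rose from 69.6, 48.3 and 77.7 CPM to 147, 154 and 125 CPM (log2 fold change 1.12, SE 0.18, adjusted p = 0.000438). Klf6 fell from 166, 188 and 192 CPM to 98.7, 105 and 107 CPM (log2 fold change -0.81, SE 0.14, adjusted p = 0.000717). Klf10 (log2 fold change 1.14, SE 0.32, adjusted p = 0.0285) lost its call without spleen 922 (adjusted p = 0.124), spleen 926 (0.108), node 926 (0.119) or node 950 (0.102). Among 15 tested MAP kinase phosphatase and Sprouty genes, Dusp4, which inactivates ERK, was the one called higher, from 8.83, 7.32 and 7.30 CPM to 44.3, 34.9 and 41.8 CPM (log2 fold change 2.37, SE 0.24, adjusted p = 2.41e-06), and 3 were called lower. Of these, the RAS activator Rasgrp1 fell by 0.76 and the RAS inhibitor Rasa3 fell by 1.01 on the log2 scale (adjusted p = 0.00242 and 0.000539).

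Components that carry the receptor signal moved in both directions. Of 29 tested B cell receptor signalling genes, 4 were higher and 5 lower, with a median of -0.12. The Src family kinase gene Lck, better known from T cells, rose from 43.4, 34.5 and 43.3 CPM to 178, 211 and 205 CPM (log2 fold change 2.29, SE 0.21, adjusted p = 6.25e-07). Cd3e, a part of the T cell receptor complex, was at 3.76, 3.95 and 2.12 CPM in spleen and 0.278, 0.845 and 1.11 CPM in node, and none of 9 tested T cell markers was called. The signalling kinase Prkcd rose (log2 fold change 0.86, SE 0.12, adjusted p = 0.000104). Syk, the kinase recruited to the receptor's tails, fell from 612, 592 and 757 CPM to 346, 297 and 422 CPM (log2 fold change -0.88, SE 0.16, adjusted p = 0.00141). The scaffold Malt1 (log2 fold change -0.87, SE 0.12, adjusted p = 6.32e-05) and the adaptor Bank1 (log2 fold change -0.74, SE 0.11, adjusted p = 0.000154) fell as well. Within the list the count of higher genes was 2 without spleen 922, node 922, spleen 926 or node 926. Of 28 calcium and NFAT genes, 1 was higher (Nrgn) and 3 lower, where 5.77% of all genes tested were higher and 4.23% lower. The calcium pump gene Atp2a3 fell from 793, 677 and 733 CPM to 462, 365 and 414 CPM (log2 fold change -0.83, SE 0.15, adjusted p = 0.00137), and the pump gene Atp2b1 fell as well (log2 fold change -0.79, SE 0.17, adjusted p = 0.0041). NF-kappaB genes were 2 higher and 2 lower of 19. The inhibitor gene Nfkbie was raised (log2 fold change 0.82, SE 0.15, adjusted p = 0.00134). The subunit gene Rel was higher as well (log2 fold change 0.43, SE 0.14, adjusted p = 0.0481), a call lost in 5 of the 6 fits without 1 library, all but that without spleen 950. The kinase gene Ikbkb (log2 fold change -0.67, SE 0.13, adjusted p = 0.00148) and Nfkb2, the precursor of the noncanonical pathway (log2 fold change -0.62, SE 0.13, adjusted p = 0.00407), were lowered.

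Surface genes that regulate activation moved in both directions. Of 22 tested inhibitory receptors, 4 were higher and 4 lower; 7 were lower with the number block, and the higher count was 1 without spleen 926 or node 926 and 2 without spleen 950. Cd72, which binds semaphorin 4D and dampens receptor signalling, rose from 211, 217 and 233 CPM to 392, 409 and 409 CPM (log2 fold change 0.87, SE 0.15, adjusted p = 0.000798). Siglecg, which restrains calcium flux, fell from 522, 534 and 474 CPM to 327, 313 and 320.4 CPM (log2 fold change -0.67, SE 0.11, adjusted p = 0.000528). Ceacam1 (log2 fold change -0.72, SE 0.14, adjusted p = 0.00219) and Lilrb3 (log2 fold change -1.12, SE 0.25, adjusted p = 0.00487), both with inhibitory motifs in their tails, fell too. The median of the 22 genes was -0.05. Of 17 tested costimulatory and coinhibitory genes, 5 were higher and 3 lower, the latter 1 without any of spleen 926, node 926, spleen 950 or node 950. Cd83, an activation marker that stabilises MHC class II, rose from 262, 303 and 403 CPM to 1029, 1055 and 908 CPM (log2 fold change 1.63, SE 0.16, adjusted p = 1.21e-06). Pdcd1lg2 (PD-L2) rose from 42.4, 41.2 and 37.7 CPM to 89.3, 95.2 and 91.8 CPM (log2 fold change 1.19, SE 0.22, adjusted p = 0.00115). The OX40 ligand gene Tnfsf4 had 1 count in all of spleen and 54 in node, a ratio of 53 with a counting interval of 9.12 to 2132. Icosl, which feeds back to follicular helper T cells, fell from 219, 209 and 224 CPM to 117, 90.9 and 115 CPM (log2 fold change -1.01, SE 0.15, adjusted p = 0.000182).

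Chemokine receptor genes moved in both directions. Of 10 tested genes of that list, 3 were higher and 2 lower, Cxcr5 and Cmah, the latter a sialic acid hydroxylase gene that is no receptor. Ccr1, a receptor for CCL3, rose from 6.80, 3.25 and 2.92 CPM to 31.6, 45.3 and 29.9 CPM (log2 fold change 3.06, SE 0.33, adjusted p = 4.92e-06). Ccr9, the receptor for the small intestinal chemokine CCL25, was at 0.145, 2.67 and 0.664 CPM in spleen and 8.20, 6.88 and 9.55 CPM in node (log2 fold change 2.74, SE 0.52, adjusted p = 0.0016). It also stands on the list of dendritic cell markers, whose other 5 tested members were not called and whose 9 genes summed to 5.84 to 11.2 CPM in spleen and 9.93 to 18.5 CPM in node. Cxcr5, which draws B cells to CXCL13 in follicles, fell from 857, 975 and 1103 CPM to 532, 394 and 554 CPM (log2 fold change -0.99, SE 0.15, adjusted p = 0.000196). Of 10 tested genes for RGS proteins, which shorten signalling by these receptors, 5 were higher and 1 was lower, with a median of 0.70. Rgs10 went from 14.0, 10.3 and 7.96 CPM to 69.8, 103 and 67.7 CPM (log2 fold change 2.90, SE 0.22, adjusted p = 6.62e-08). Rgs1, an early marker of receptor stimulation in B cells, went from 0.724, 1.86 and 3.19 to 15.3, 11.7 and 6.23 CPM (log2 fold change 2.503, SE 0.49, adjusted p = 0.00211). Rgs14 was the one that fell (log2 fold change -0.85, SE 0.19, adjusted p = 0.00481). Rgs16 had 6 counts in spleen and 60 in node, a ratio of 9.82 (counting interval 4.26 to 27.8), and its call was lost without spleen 922 (adjusted p = 0.0853), spleen 926 (0.104) or node 950 (0.0719).

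Several genes of entry into and exit from lymphoid organs were lower in the node. Of 15 tested egress, oxysterol and node entry genes, 7 were lower and 0 higher, with a median of -0.60. The factor Klf2, which keeps lymphocytes quiescent and drives their recirculation genes, fell from 166, 197 and 160.3 CPM to 63.0, 53.3 and 57.7 CPM (log2 fold change -1.59, SE 0.28, adjusted p = 0.000779). S1pr4 fell from 478, 443 and 386 CPM to 234, 276 and 271 CPM (log2 fold change -0.74, SE 0.14, adjusted p = 0.00153). S1pr1, the main egress receptor, was at 628, 562 and 429.8 CPM in spleen and 456, 481 and 423 CPM in node, with overlapping libraries and no call (adjusted p = 0.317). Cyp39a1, an oxysterol hydroxylase gene, fell from 18.4, 17.2 and 13.3 CPM to 3.34, 3.74 and 3.60 CPM (log2 fold change -2.19, SE 0.35, adjusted p = 0.000316). Integrin beta 7, the gut homing chain encoded by Itgb7, was lower in the gut-draining node than in spleen, at 208, 226 and 219 against 495, 492 and 462 CPM (log2 fold change -1.15, SE 0.15, adjusted p = 3.85e-05). The integrin chain Itgav rose from 16.9, 17.0 and 17.7 to 41.8, 30.9 and 31.6 CPM (log2 fold change 1.02, SE 0.22, adjusted p = 0.00403).

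Genes of follicular and of marginal zone B cells were both found among those lower in the node. Of 14 tested follicular genes, 8 were lower and 0 higher (median -0.75), and of 21 marginal zone genes, 6 were lower and 1 higher (median -0.32). The lists share members such as Cr2. Cd55, which guards cells against complement, fell from 628, 593 and 535 CPM to 282, 229.8 and 242 CPM (log2 fold change -1.22, SE 0.14, adjusted p = 7.92e-06). Cr2, the complement receptor CD21, fell from 546, 594 and 618 CPM to 287, 263 and 331 CPM (log2 fold change -0.998, SE 0.18, adjusted p = 0.00103). Notch2, the receptor needed for marginal zone cells, fell from 404, 456 and 396 CPM to 245, 228 and 217 CPM (log2 fold change -0.86, SE 0.15, adjusted p = 0.000786). Plac8 was the marginal zone list's one gene higher in the node, from 486, 465 and 458 CPM to 849, 1275 and 779 CPM (log2 fold change 1.04, SE 0.19, adjusted p = 0.0011). Of 23 B cell identity transcription factors, 10 were lower and 1 higher (median -0.36); 6 were lower without node 926. Ebf1 fell from 302, 290.1 and 295 CPM to 177, 150.5 and 166 CPM (log2 fold change -0.85, SE 0.11, adjusted p = 5.18e-05). Spib fell by 0.75 and its relative PU.1 (Sfpi1) fell by 0.71 on the log2 scale (adjusted p = 0.00228 and 0.000631). The one identity factor higher in the node was Irf8, named here after its values were seen. Of 11 B cell markers 5 were called lower, among them Ms4a1 (CD20), Pax5, Ebf1 and Spib, and 8 were with the number block. Levels stayed high: Ms4a1 was at 2167, 2186 and 2054 CPM in spleen and 1481, 1430.4 and 1437 CPM in node.

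**Figure D2:**
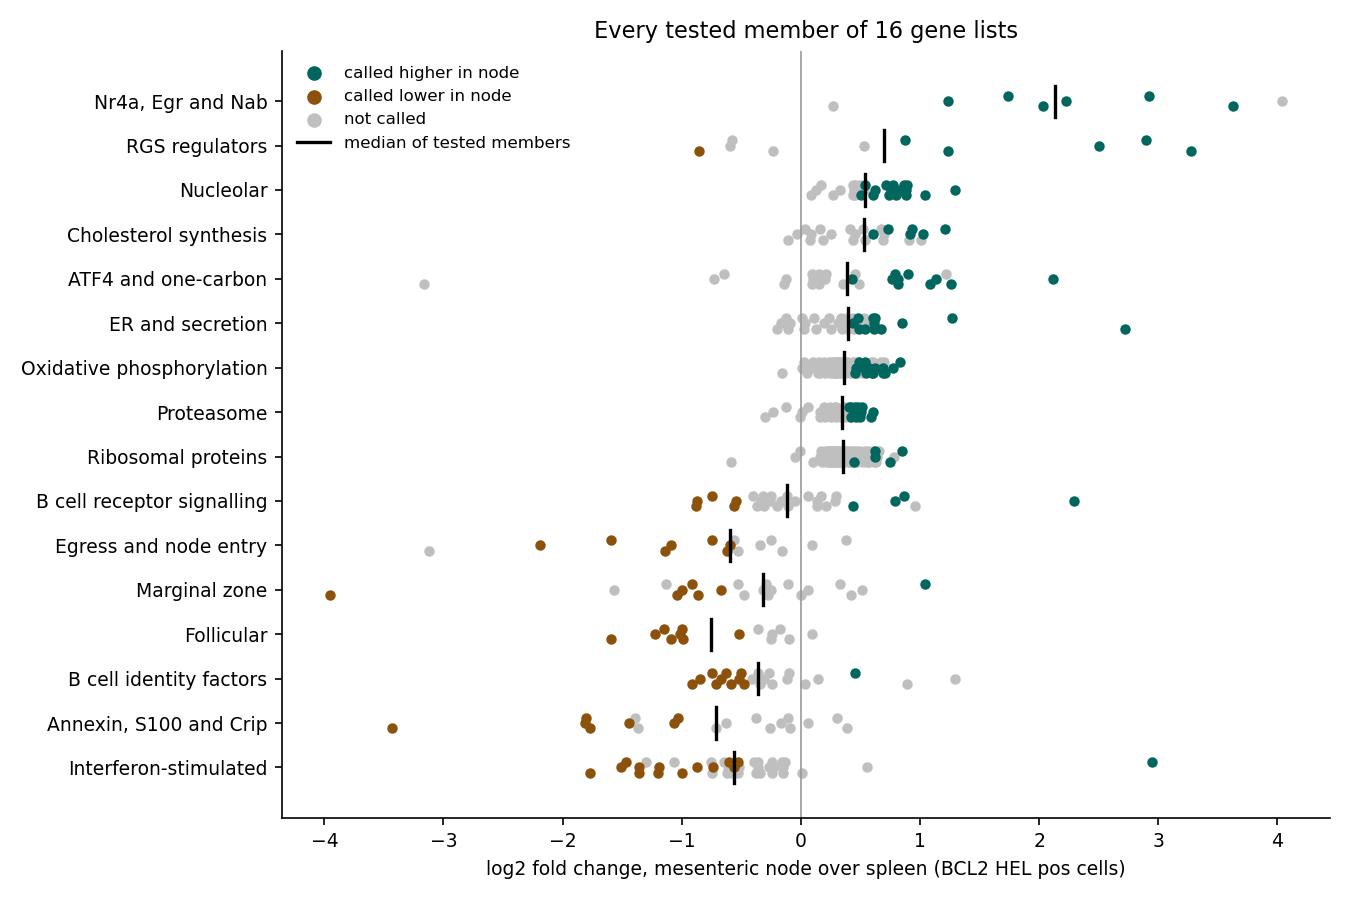
Log2 fold change, node over spleen, of every tested member of 16 gene lists in BCL2 HEL pos cells; green and brown points are genes called higher and lower in the node, grey points are not called, and black bars mark medians. Medians run from -0.75 for follicular genes to 2.13 for the Nr4a, Egr and Nab list.

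Among the genes that fell most were Asb2 and Nedd4, both of ubiquitin ligases. Asb2, the substrate adaptor that targets filamins, was at 15.5, 11.8 and 10.4 CPM in spleen and 1.39, 0.725 and 0.277 CPM in node, or 287 against 18 counts (log2 fold change -3.95, SE 0.72, adjusted p = 0.00119). Nedd4 was at 14.0, 10.3 and 14.7 CPM and 1.25, 0.242 and 2.91 CPM, or 297 against 32 counts (log2 fold change -3.17, SE 0.46, adjusted p = 0.000122). In both genes the highest node library was far below the lowest spleen library. The third lower gene of 15 tested in the tolerance-linked ligase list, Traf3, changed little (log2 fold change -0.56, SE 0.17, adjusted p = 0.0426) and lost its call in each fit without 1 of the 6 libraries (adjusted p 0.0554 to 0.153). In the list of cytoskeletal and calcium-binding annexin, S100 and Crip genes, 7 of 19 were lower, 0 higher and 12 not called, with a median of -0.72. Vim, the intermediate filament vimentin, fell from 222, 299 and 313 CPM to 77.0, 77.3 and 82.8 CPM (log2 fold change -1.81, SE 0.24, adjusted p = 4.11e-05). Anxa6, an annexin gene, fell from 335, 337 and 304 CPM to 165, 167 and 133 CPM (log2 fold change -1.07, SE 0.17, adjusted p = 0.000377). The scaffold gene Ahnak fell from 51.8, 73.2 and 72.1 CPM to 12.7, 12.2 and 12.0 CPM (log2 fold change -2.42, SE 0.25, adjusted p = 2.47e-06), with node libraries within 1 CPM of each other. Myadm, a membrane raft protein gene, fell from 164, 223 and 289.9 CPM to 27.1, 35.9 and 43.1 CPM (log2 fold change -2.67, SE 0.25, adjusted p = 1.18e-06). Cacna1i, a voltage-gated calcium channel gene, fell from 57.6, 59.5 and 52.3 CPM to 17.4, 8.82 and 10.5 CPM (log2 fold change -2.21, SE 0.23, adjusted p = 3.51e-06). Fcgrt, the neonatal Fc receptor gene, fell from 51.2, 59.0 and 50.4 CPM to 15.8, 11.5 and 14.4 CPM (log2 fold change -1.95, SE 0.33, adjusted p = 0.000578). Ffar2, Ngfr and Il9r, also of the lowest 12, each lost their call without 1 node library. For the short-chain fatty acid receptor Ffar2 this was node 922 (adjusted p = 0.0521), and for the growth factor receptor Ngfr (0.0617) and the cytokine receptor Il9r (0.0623) it was node 926. The most negative value was that of Beta-s, with 450 counts in spleen, 344 of them in library 922, and 4 in node. Beta-s made up most of the erythroid marker sum of spleen given above, so that sum is not separate evidence. The part of red cells in other differences was not tested. Igj, the J chain of secreted antibody, was at 351, 142 and 98.8 CPM in spleen and 59.2, 71.4 and 28.0 CPM in node (log2 fold change -1.90, SE 0.57, adjusted p = 0.0387). Its call was lost without spleen 922 (adjusted p = 0.267), node 922 (0.0876), spleen 926 (0.0532), node 926 (0.0741) or node 950 (0.165).

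Many interferon-stimulated genes were lower in the node. Type I interferon signals through STAT and IRF factors, which bind the ISRE in promoters of antiviral genes. Of 39 tested members, 13 were lower and 1 higher, with a median of -0.56 and 23 members whose node libraries all lay below the spleen libraries, as 16.3% of all genes tested did. Irf7, the factor that amplifies interferon production, was at 139, 91.9 and 123 CPM in spleen and 47.5, 24.2 and 31.8 CPM in node (log2 fold change -1.77, SE 0.26, adjusted p = 0.00015). Rtp4, an interferon-induced antiviral gene, fell from 93.4, 76.9 and 87.5 CPM to 49.9, 30.0 and 32.8 CPM (log2 fold change -1.19, SE 0.23, adjusted p = 0.00157). Cmpk2, a mitochondrial nucleotide kinase gene next to viperin, fell from 51.5, 38.6 and 41.7 CPM to 21.5, 20.2 and 15.5 CPM (log2 fold change -1.20, SE 0.23, adjusted p = 0.00185). In each of these the tissues stayed apart, and spleen 922 held the highest value. The RNA sensor gene Ddx58 (RIG-I) fell by less, from 106, 106 and 115 CPM to 76.6, 59.5 and 59.4 CPM (log2 fold change -0.74, SE 0.16, adjusted p = 0.00431). The exception was Ifitm2, a membrane protein gene that blocks virus entry, which rose from 3.18, 1.63 and 0.133 CPM to 11.1, 14.0 and 12.6 CPM (log2 fold change 2.94, SE 0.48, adjusted p = 0.000441). Lower members numbered 20 with the number block and 8 without node 926 or without spleen 950. In HEL pos cells, which share no library with these, the median of the same 39 genes was -0.03, with 5 higher and 7 lower (background 12.9% and 11.5%), and Irf7 had means of 50.1 ± 8.25 CPM in spleen and 38.8 ± 13.1 CPM in node. The difference between the 2 kinds of cell was itself tested for every gene by edgeR and called for 0 of the 39 (Irf7 adjusted p = 0.113). That test called 0.385% of all genes, so 0 of 39 says little about the list. The median difference of log2 fold changes, BCL2 HEL pos minus HEL pos, was -0.59 for the 39 and 0.002 over all genes. At an unadjusted p under 0.05 the test passed 1066 of all genes.

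Promoters of a gene that fell and of the one that rose are shown because both hold an ISRE match, in capitals:
Ddx58, chr4:40239776-40240075, - strand: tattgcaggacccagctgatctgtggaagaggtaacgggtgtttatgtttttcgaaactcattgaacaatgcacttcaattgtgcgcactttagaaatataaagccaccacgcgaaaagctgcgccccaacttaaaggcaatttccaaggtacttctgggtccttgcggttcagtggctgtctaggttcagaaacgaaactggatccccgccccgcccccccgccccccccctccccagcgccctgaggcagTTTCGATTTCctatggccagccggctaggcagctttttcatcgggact
Ifitm2, chr7:140955912-140956211, - strand: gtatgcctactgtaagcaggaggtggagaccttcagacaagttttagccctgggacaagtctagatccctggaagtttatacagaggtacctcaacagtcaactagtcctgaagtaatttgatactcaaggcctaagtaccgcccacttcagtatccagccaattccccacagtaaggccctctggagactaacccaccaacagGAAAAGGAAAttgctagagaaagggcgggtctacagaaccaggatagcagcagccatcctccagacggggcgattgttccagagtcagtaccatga
The Ddx58 match begins 2 bases after the start site and the Ifitm2 match 46 bases before it. An ISRE was found in 18 of 29 tested list members with a promoter entry (62.1%) and in 6 of 11 of the called ones (54.5%), with 3.90% over all tested genes and 3.44% of all 32851 promoters in the table. The other 12 members with a match were not called.

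**Figure D3:**
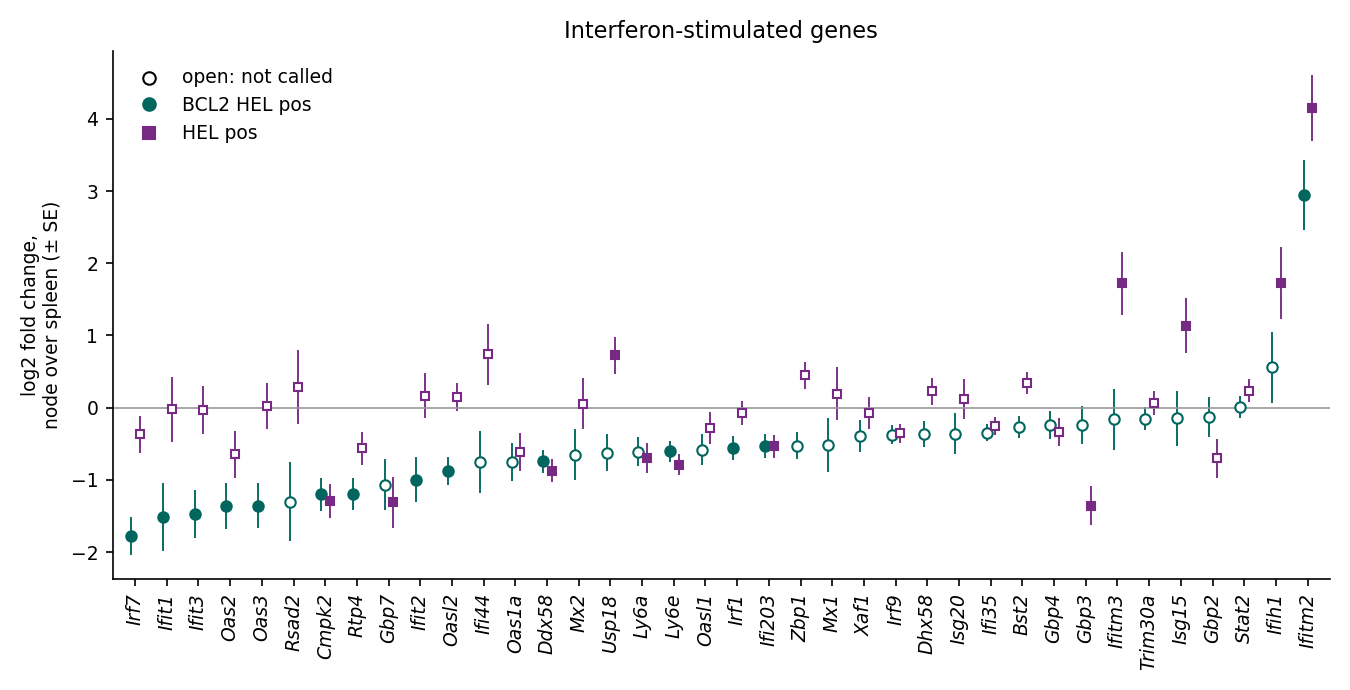
Log2 fold change, node over spleen, with its SE, of 38 of the 39 tested interferon-stimulated genes in BCL2 HEL pos (green circles) and HEL pos cells (purple squares); filled symbols passed an adjusted p under 0.05. Irf7 lies at -1.77 in BCL2 HEL pos and -0.37 in HEL pos cells, and Ifitm2 lies above 0 in both.

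Many genes of growth and biosynthesis were higher in the node, by small folds. Of 29 nucleolar and ribosome assembly genes, 16 were higher and 0 lower, with a median of 0.54 and 24 members whose node libraries all lay above the spleen libraries, as 17.1% of all genes tested did. Nucleophosmin (Npm1) rose from 642, 640.4 and 620.4 CPM to 1234, 1501 and 1187 CPM (log2 fold change 1.04, SE 0.14, adjusted p = 7.5e-05). The RNA polymerase I subunit gene Polr1b rose from 30.8, 33.3 and 34.6 CPM to 55.6, 57.6 and 63.0 CPM (log2 fold change 0.83, SE 0.13, adjusted p = 0.000243). Amino acid and one-carbon genes of the ATF4 list were 10 higher and 0 lower of 26 (median 0.39). Shmt1, a serine hydroxymethyltransferase that feeds folate with carbon, rose from 6.51, 7.09 and 8.76 CPM to 31.6, 36.2 and 29.4 CPM (log2 fold change 2.12, SE 0.25, adjusted p = 1.26e-05). Its mitochondrial partner Shmt2 rose from 68.5, 54.3 and 69.8 CPM to 148, 132 and 141 CPM (log2 fold change 1.13, SE 0.13, adjusted p = 7.92e-06). Phgdh, the first enzyme of serine synthesis, rose by 0.90 on the log2 scale (adjusted p = 7.57e-05), so an enzyme that makes serine and both that use it for folate were higher. Of 27 glycolysis genes, 8 were higher and 1 lower (median 0.35). Lactate dehydrogenase (Ldha) rose from 398, 351 and 471 CPM to 692, 693 and 685 CPM (log2 fold change 0.76, SE 0.14, adjusted p = 0.000986). Pfkp, the platelet-type phosphofructokinase, rose from 70.8, 81.0 and 82.4 CPM to 143, 193 and 162 CPM (log2 fold change 1.09, SE 0.21, adjusted p = 0.00217). All 3 lists kept their counts within 1.5 times under the alternatives run.

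Other housekeeping lists leaned the same way but their counts depended more on the fit. Of 75 nuclear oxidative phosphorylation genes, 15 were higher and 0 lower (median 0.36), and 41 were higher with the number block; without 1 library the count was 8 (node 922), 6 (spleen 926), 4 (node 926) or 6 (spleen 950). Cytosolic ribosomal protein genes were 5 higher and 0 lower of 78, a share near the 5.77% of all genes, with a median of 0.35; 35 were higher with the block, 3 without spleen 926 or spleen 950 and 2 without node 926. Of 38 proteasome subunit genes, 13 were higher (median 0.34), and the count was 5 without spleen 922, 8 without node 922, 4 without spleen 926, 3 without node 926 and 7 without either library 950. Of 24 cholesterol synthesis genes, 6 were higher (median 0.53), 14 with the block, 3 without spleen 922 and 2 without spleen 926, node 926, spleen 950 or node 950. Isopentenyl diphosphate isomerase (Idi1) rose from 45.4, 39 and 33.8 CPM to 80.8, 108 and 84.6 CPM (log2 fold change 1.21, SE 0.27, adjusted p = 0.00546). TCA cycle genes were 6 higher of 24 (median 0.31), 10 with the block, 2 without spleen 922 or spleen 950, 3 without node 922 and 1 without either library 926. The ATP synthase subunit gene Atp5g1 rose from 117, 106 and 103 CPM to 185, 178 and 170.3 CPM (log2 fold change 0.71, SE 0.15, adjusted p = 0.00304). Rps2, a small ribosomal subunit protein gene, rose from 1765, 1536 and 1661 CPM to 2883, 3209 and 2860.1 CPM (log2 fold change 0.85, SE 0.11, adjusted p = 5.83e-05). In each of these named genes the 3 node libraries lay above the 3 spleen libraries.

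Chaperones and secretion genes of the endoplasmic reticulum were 12 higher and 0 lower of 37, with a median of 0.39. With the number block 21 were higher, and without 1 library the count was 3 (spleen 922), 5 (spleen 926), 4 (node 926), 7 (spleen 950) or 6 (node 950). Derl3, which pulls misfolded proteins out of the reticulum and is prominent in plasma cells, rose from 6.37, 4.07 and 7.96 CPM to 36.1, 40.5 and 44.2 CPM (log2 fold change 2.72, SE 0.29, adjusted p = 3.14e-06). The protein disulfide isomerase gene Pdia6 rose from 158, 193 and 195 CPM to 267, 380.4 and 333 CPM (log2 fold change 0.85, SE 0.19, adjusted p = 0.00523). The chaperone cofactor gene Sdf2l1 rose from 30.4, 34.6 and 45.1 CPM to 63.7, 106 and 96.1 CPM (log2 fold change 1.27, SE 0.23, adjusted p = 0.00124). The promoters of the first pair are shown for their ERSE, the element read by ATF6 and XBP1 during unfolded protein stress, in capitals:
Pdia6, chr12:17266339-17266638, + strand: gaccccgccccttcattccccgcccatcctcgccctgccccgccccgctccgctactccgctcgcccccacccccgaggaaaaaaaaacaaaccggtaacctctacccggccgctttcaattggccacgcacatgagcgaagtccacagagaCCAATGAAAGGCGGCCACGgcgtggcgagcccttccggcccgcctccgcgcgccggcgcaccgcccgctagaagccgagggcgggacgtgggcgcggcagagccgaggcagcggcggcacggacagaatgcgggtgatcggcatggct
Derl3, chr10:75893148-75893447, + strand: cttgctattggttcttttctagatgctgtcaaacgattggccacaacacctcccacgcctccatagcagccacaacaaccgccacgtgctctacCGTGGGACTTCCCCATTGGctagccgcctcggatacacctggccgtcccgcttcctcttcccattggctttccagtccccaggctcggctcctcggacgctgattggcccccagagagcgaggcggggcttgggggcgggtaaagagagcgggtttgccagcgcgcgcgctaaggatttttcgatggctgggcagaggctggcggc
The element starts 98 bases before the Pdia6 start site and 156 bases before that of Derl3, where it lies on the other strand. An ERSE was found in 9 of 29 tested list members with a promoter entry (31.0%) and in 5 of 11 called ones (45.5%), with 0.164% over all tested genes. Xbp1 itself was at 195, 217 and 227 CPM in spleen and 233, 277 and 297 CPM in node and was not called (adjusted p = 0.188), though it was with the number block (0.0459).

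Plasma cell genes were mixed. Of 16 tested, 4 were higher (7 with the number block) and 1, Igj, was lower. Irf4, needed both for activation and for plasma cell fate, rose from 152, 181 and 143 CPM to 313, 392 and 323 CPM (log2 fold change 1.11, SE 0.16, adjusted p = 0.00015). The surface receptor gene Slamf7 rose from 68.0, 43.9 and 49.0 CPM to 109, 143 and 87.1 CPM (log2 fold change 1.08, SE 0.18, adjusted p = 0.000427). Prdm1, which encodes Blimp-1, was at 2.61, 2.56 and 2.12 CPM in spleen and 2.09, 3.62 and 4.15 CPM in node and was not called (adjusted p = 0.724). The syndecan Sdc1 (log2 fold change 0.94, SE 0.29, adjusted p = 0.0416) lost its call without spleen 922 (adjusted p = 0.0865), spleen 926 (0.175), node 926 (0.206), spleen 950 (0.0747) or node 950 (0.132). Of 30 mitosis genes 0 were higher and 1 was lower, and DNA replication genes were 4 higher and 2 lower of 37. Genes of the list of cyclins and CDK inhibitors that act in G1 were 2 higher and 3 lower of 18. Over all genes tested the shares were 5.77% higher and 4.23% lower. The growth-linked cyclin Ccnd2 rose from 27.2, 24.9 and 41.3 CPM to 59.6, 63.5 and 89.4 CPM (log2 fold change 1.19, SE 0.20, adjusted p = 0.000632). Its partner kinase gene Cdk4 rose from 145, 115 and 141 CPM to 259, 265 and 254 CPM (log2 fold change 0.96, SE 0.11, adjusted p = 1.08e-05), with libraries apart in both. The inhibitor gene Cdkn2d fell from 106, 91.8 and 73.3 CPM to 62.1, 39.1 and 50.0 CPM (log2 fold change -0.84, SE 0.17, adjusted p = 0.00321). The other lower members were Cdkn1b (log2 fold change -0.66, SE 0.20, adjusted p = 0.0439), whose call was lost in each fit without 1 library (adjusted p 0.0683 to 0.164), and E2f2 (log2 fold change -0.95, SE 0.27, adjusted p = 0.0297), whose call was lost in all of these but that without spleen 950 (0.0658 to 0.125). The count of 3 lower genes was 1 without any single library other than spleen 950, and 5 with the number block. The count of 4 higher replication genes was 1 without spleen 922, spleen 926, node 926 or spleen 950 and 2 without node 922 or node 950.

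Among BCL2 family genes, copies of A1 were higher in the node. Of 7 tested antiapoptotic members, 3 were higher, all of them copies of A1. Bcl2a1b rose from 18.4, 13.8 and 12.6 CPM to 84.9, 82.0 and 57.7 CPM (log2 fold change 2.33, SE 0.25, adjusted p = 5.06e-06). Bcl2a1d rose from 5.65, 3.83 and 4.51 CPM to 29.8, 22.6 and 23.3 CPM (log2 fold change 2.44, SE 0.28, adjusted p = 1.06e-05). The third copy, Bcl2a1c (log2 fold change 2.05, SE 0.61, adjusted p = 0.0353), had low counts and lost its call without spleen 922 (adjusted p = 0.116), spleen 926 (0.108), node 926 (0.167), spleen 950 (0.109) or node 950 (0.0774). These copies are nearly identical, so how reads were shared among them is uncertain. Mcl1 (318, 340.3 and 335 CPM in spleen, 270.1, 282 and 265 CPM in node) and Bcl2l1 (9.41, 10.5 and 6.64 and 13.5, 12.4 and 11.8 CPM) were not called (adjusted p = 0.594 and 0.274). Of 10 proapoptotic members 1 was higher: Bcl2l11, which encodes BIM, a proapoptotic protein that removes self-reactive lymphocytes and that BCL2 binds, went from 72.2, 95.5 and 98.4 CPM to 116, 228 and 152 CPM (log2 fold change 0.90, SE 0.20, adjusted p = 0.00604). Its highest value was in node 926, and without that library the adjusted p was 0.0809. The promoters of both well measured A1 copies are shown because they show how alike the copies are. Both hold a match to the AP-1 letters TGANTCA, with A in the middle, and an EGR site, in capitals in this order:
Bcl2a1b, chr9:89199023-89199322, + strand: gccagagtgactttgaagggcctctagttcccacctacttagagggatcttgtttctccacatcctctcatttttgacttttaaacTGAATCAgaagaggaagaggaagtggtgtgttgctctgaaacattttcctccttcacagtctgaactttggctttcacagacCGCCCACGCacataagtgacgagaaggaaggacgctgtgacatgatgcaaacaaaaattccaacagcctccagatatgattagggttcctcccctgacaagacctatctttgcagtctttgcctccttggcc
Bcl2a1d, chr9:88731801-88732100, - strand: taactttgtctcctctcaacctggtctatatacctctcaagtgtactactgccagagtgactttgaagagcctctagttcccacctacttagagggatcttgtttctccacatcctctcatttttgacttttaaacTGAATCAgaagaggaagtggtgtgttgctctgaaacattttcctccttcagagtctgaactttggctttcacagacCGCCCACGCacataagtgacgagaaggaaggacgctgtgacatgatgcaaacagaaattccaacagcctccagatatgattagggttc
The longest run the windows share is 84 of 300 bases, and runs of 10 or more identical bases in order add up to 247. The EGR site starts 82 bases before the Bcl2a1b start site and 38 before that of Bcl2a1d, and the AP-1 match 164 and 114 bases before. An EGR site was found in 7.59% and a match to the AP-1 letters, with any middle base, in 5.90% of tested genes. Among genes called higher in the node these shares were 7.24% and 5.14%. Among genes called lower they were 11% and 7.87%.

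The same tissue comparison in HEL pos cells without the BCL2 label gave 2794 calls (24.5%). Of the 1142 calls in BCL2 HEL pos cells, 963 (84.3%) were also called in HEL pos cells in the same direction, which is 34.5% of the HEL pos calls, 0 were called in the opposite direction and 179 were not called. The 2 comparisons share no library. In 740 of the 963 the absolute log2 fold change was smaller in BCL2 HEL pos cells. Across the 11419 genes Pearson's r of the fold changes was 0.627 and Spearman's rank correlation 0.629, over genes that are not independent replicates. Medians of the nucleolar list were 0.54 in BCL2 HEL pos and 0.89 in HEL pos cells. Those of the marginal zone list were -0.32 and -1.14. Those of the cholesterol list were 0.53 and 0.25. The test of a difference between the kinds of cell called 0.385% of all genes. It called 5 of the 21 marginal zone members, 0 of the 29 nucleolar members and 0 of the 24 cholesterol members. For the latter lists, 0 is near that share.

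**Figure D4:**
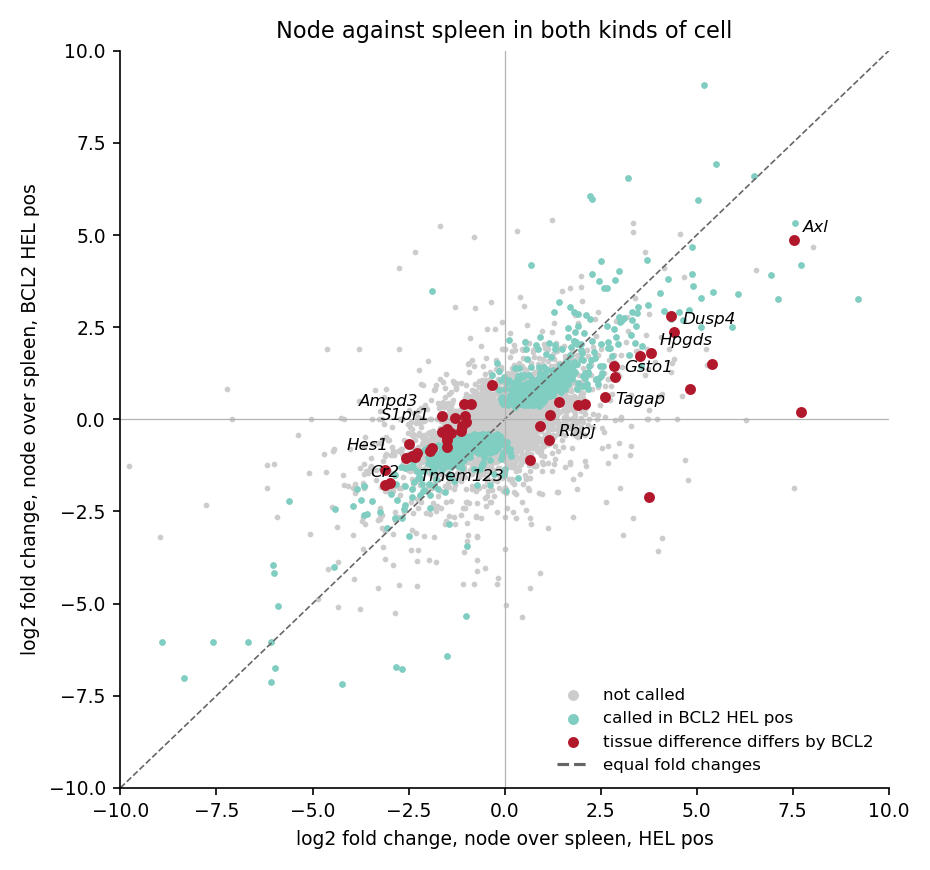
Log2 fold change, node over spleen, of 11419 genes in HEL pos (x axis) and BCL2 HEL pos cells (y axis); green genes were called in BCL2 HEL pos cells and red genes differed between the 2 kinds of cell. Of the 44 red genes, 34 lie on the same side of 0 in both and nearer to 0 on the y axis, as Axl does with 4.85 against 7.54.

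A direct test of whether the tissue difference depended on BCL2 called 44 genes (0.385%). In 34 of them the difference had the same sign and was smaller in BCL2 HEL pos cells, and in 10 it had the opposite sign. Genes called in both kinds of cell in opposite directions numbered 0, so none of the 10 was a called reversal. Ampd3, for instance, had a log2 fold change of 0.09 in BCL2 HEL pos cells and was not called there (adjusted p = 0.871). Hes1, a repressor induced by Notch, was at 107 ± 8.11 CPM in spleen and 18.9 ± 2.73 CPM in node in HEL pos cells (SD, n = 3). In BCL2 HEL pos cells it was at 59.3, 55.8 and 45.4 CPM in spleen and 39.8, 29.8 and 31.3 CPM in node. The difference of the log2 fold changes, BCL2 HEL pos minus HEL pos, was 1.83, adjusted p = 0.000948. Rbpj, the DNA-binding partner of Notch, moved the other way: its HEL pos means were 32.0 ± 1.24 CPM in spleen and 73.3 ± 7.38 CPM in node. BCL2 HEL pos libraries held 57.2, 63.1 and 61.9 CPM and 56.6, 71.4 and 70.5 CPM (difference -1.07, adjusted p = 0.0182). The BCL2 HEL pos tissues overlapped for Rbpj and did not for Hes1. Tagap, a GTPase activating protein gene, had HEL pos means of 20.3 ± 5.01 and 124 ± 2.90 CPM, and BCL2 HEL pos libraries of 42.4, 75.9 and 88.4 CPM in spleen and 83, 120.2 and 109 CPM in node (difference -2.01, adjusted p = 0.00636). S1pr1 had HEL pos means of 569.8 ± 41.0 CPM in spleen and 203 ± 19.7 CPM in node, so the drop of HEL pos cells was not called in BCL2 HEL pos cells and the drops differed (difference 1.24, adjusted p = 0.0129). For Cr2 (1.42, adjusted p = 0.0236) and Tmem123 (1.08, adjusted p = 0.0236) the tissue drop was smaller, and for Gsto1 (-1.39, adjusted p = 0.0108), Dusp4 (-2.04, adjusted p = 0.0236) and Hpgds (-2.02, adjusted p = 0.0236) the rise was smaller. Spleen means of Gsto1 were 49.4 ± 3.25 CPM in BCL2 HEL pos and 14.5 ± 1.08 CPM in HEL pos cells. Ampd3, an AMP deaminase gene, had HEL pos means of 30.1 ± 3.39 and 9.72 ± 1.86 CPM, and BCL2 HEL pos means of 17.9 ± 0.969 and 19.1 ± 1.36 CPM (difference 1.71, adjusted p = 0.0236).

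These calls depended on the libraries. The count was 23 without spleen 922, 2 without node 922, 4 without spleen 926, 30 without node 926, 15 without spleen 950 and 5 without node 950, and 192 with the number block. Of the 10 named genes, Hes1 and Tagap were called in each of these fits. Gsto1 and S1pr1 lost their call without node 922 (adjusted p = 0.0516 in both). The other 6 lost it without node 922 (0.0584 to 0.0627), without spleen 926 (0.0731 to 0.0768) and without node 950 (0.0506 to 0.0567), and Tmem123 also without spleen 922 (0.0523). In simulated counts of 11177 fitted genes, with these libraries' depths and spread, a few genes were given a changed level. The same test recovered 31.3% of 67 genes changed 2-fold, 92.4% of 66 changed 4-fold and 2.99% of 67 changed 1.5-fold. The changed genes were drawn from the better expressed ones, so recovery at low counts was not measured. Markers of other cells differed between the sets as well. In HEL pos cells the 9 T cell markers summed to 4.94 to 21.8 CPM in spleen and 13.3 to 60.1 CPM in node, with 4 called higher. The 8 granulocyte markers summed to 53 to 191 CPM in spleen and at most 0.261 CPM in node. Cd3e was itself among the 44, at 0.534 ± 0.392 CPM in spleen and 7.16 ± 4.51 CPM in node of HEL pos cells. Y-linked transcripts were at 0 CPM in node and 0.152 and 0.72 CPM in spleen of HEL pos libraries 392 and 399, and at 145 and 140.2 CPM in node and spleen of the HEL pos pool, where all BCL2 HEL pos libraries held them. The part of other cells and of the sex of the mice in the interaction calls was not tested.

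**Figure D5:**
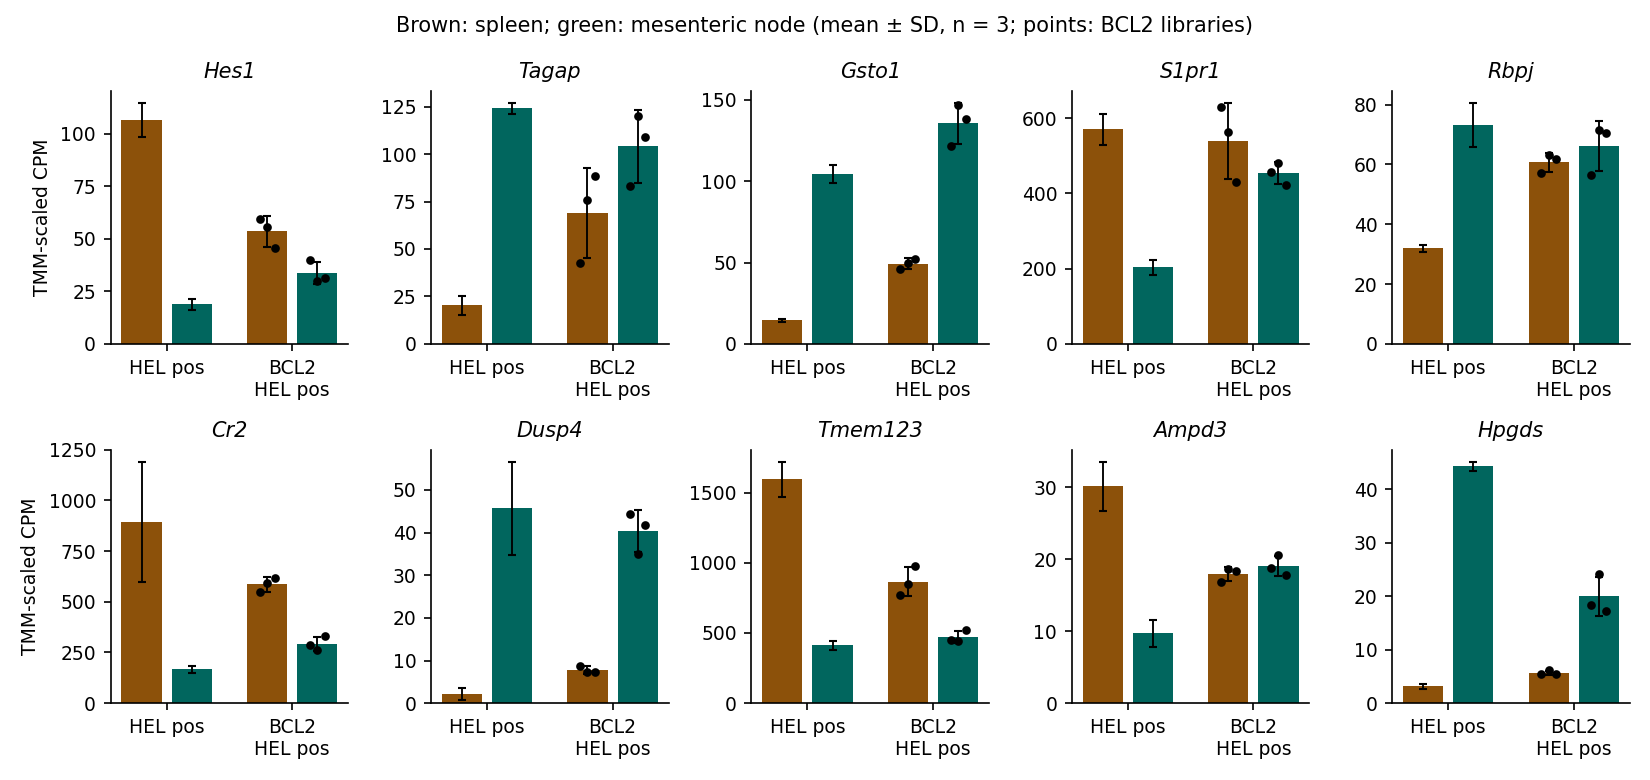
Mean TMM-scaled CPM (bars from 0, SD as error bars, n = 3) in spleen (brown) and mesenteric node (green), in HEL pos cells and in BCL2 HEL pos cells, for the 10 genes with the smallest p for a tissue difference that depends on BCL2; points are the BCL2 HEL pos libraries. Hes1 falls from 107 to 18.9 CPM in HEL pos cells and from 53.5 to 33.6 CPM in BCL2 HEL pos cells.

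In the HEL neg pools, 1 library of each tissue and so with no replicate check, the leading genes were as follows. Axl was at 2.19 CPM in spleen and 2.40 CPM in node, Egr2 at 10.8 and 19.2 CPM, and Ahr at 13.8 and 12.2 CPM. Asb2, by contrast, was at 49.2 CPM in spleen and 5.60 CPM in node, and Klf2 at 83.5 and 209 CPM, the reverse of its order in BCL2 HEL pos cells. In Peyer's patches of BCL2 mice, which are compared with the same spleen libraries, Axl was at 37.4, 84.7 and 77.0 CPM, Egr2 at 40.8, 45.6 and 83.8 CPM and Klf2 at 74.3, 41.6 and 34.8 CPM in libraries 922, 926 and 950.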

How the data were processed

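The values are whole-number read counts per gene symbol, deposited by the submitters for 21 libraries of single-end reads; 18 enter the fit and the 3 HEL neg pools, 1 a tissue, do not. STAR, HTSeq, DESeq2 and the build mm10 are named, with no versions or roles, in the submitters' processing notes; the strand setting is not given in the sources used here, so overlapping genes may share reads. The labels name more than 1 library kit.

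Genes passing edgeR's filterByExpr (11419 of 23337) were fitted over the 18 libraries of 6 groups with edgeR 4.0.16 (R 4.3.3) by its quasi-likelihood test with TMM scaling and 12 residual degrees of freedom. P-values are two-sided and adjusted by Benjamini-Hochberg over all genes, with calls at 0.05. Counts per library size (CPM) are TMM-scaled, except that marker sums and the Xist and Y-linked values use plain totals. Counting intervals (95%, exact, of the ratio of summed counts) and limits at 0 counts cover counting error only. The rRNA entry Rn45s, kept in the totals, held 2.53% to 3.36% of counts in the 6 compared libraries and 0.809% to 3.97% in all 18. Node and spleen libraries share their numbers. Deviations from group means correlated at 0.184, 0.101 and 0.114 for the same number and at -0.124 to 0.018 for different numbers. Deviations within a group cancel, so the values for different numbers are not separate evidence. The main fit has no term for the number, so its SEs, adjusted p and calls ignore the sharing.

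Named genes are the 12 highest and 12 lowest fold changes among calls whose tissues do not overlap and whose average log2 CPM is 3 or more. That average runs over the 18 fitted libraries. Also named are up to 5 called members of each list by p, members of lists of at most 12 genes, Bcl2, 10 interaction genes and cell type markers. The comparison, the 71 gene lists and the rule were chosen with earlier results of these data known. Alternatives were DESeq2's size factors, DESeq2 1.42.0, no filter, each library left out, the compared libraries alone and the number as a block. Values of some genes are not reported here. The test was tried on simulated counts of 11186 fitted genes, where it recovered 67.2% of 67 genes changed 2-fold and 98.5% of 66 changed 4-fold. The changed genes were drawn from the better expressed ones. Gene positions are from GENCODE M21 and promoters from RefSeq, both GRCm38.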

Additional observations from a re-analysis of the deposited data

Results flagged for a closer look

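The test of whether the node to spleen difference depended on BCL2 passed for 44 genes. Beside each gene named from it, the value is the log2 fold change in BCL2 HEL pos cells minus that in HEL pos cells, with HEL pos cells from other libraries. It was 1.83, adjusted p = 0.000948 for Hes1, 1.24, adjusted p = 0.0129 for S1pr1, 1.42, adjusted p = 0.0236 for Cr2, 1.08, adjusted p = 0.0236 for Tmem123 and 1.71, adjusted p = 0.0236 for Ampd3. It was -2.01, adjusted p = 0.00636 for Tagap, -1.39, adjusted p = 0.0108 for Gsto1, -1.07, adjusted p = 0.0182 for Rbpj, -2.04, adjusted p = 0.0236 for Dusp4 and -2.02, adjusted p = 0.0236 for Hpgds. For Axl it was -2.69, adjusted p = 0.0236, from HEL pos means of 1.10 ± 0.319 CPM in spleen and 211 ± 17.5 CPM in node and BCL2 HEL pos means of 4.06 ± 0.797 and 118 ± 39.2 CPM (SD, n = 3). The Axl call was lost without node 922 (adjusted p = 0.0584), spleen 926 (0.0768), spleen 950 (0.0808) or node 950 (0.0567).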

How the results depend on the processing

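Of the 214 named genes called, 141 were called under each alternative that tested them, 73 under fewer, and 0 changed sign. A change of sign was hardly possible where the libraries of the tissues did not overlap. The total of 1142 calls (659 higher, 483 lower) was 1153, 1428 and 1280 with DESeq2's size factors, by DESeq2 and with no filter, and 561 to 862 with 1 library left out (350 to 511 higher, 211 to 351 lower). It rose to 1773 with the replicate block (1009 higher, 764 lower) and to 1946 with the compared libraries alone (1039 higher, 907 lower). Of the 1142, 1140 were among the calls with the block. The 44 interaction calls were 163 by DESeq2, 191 with no filter, 90 with the compared libraries alone, 192 with the block and 2 to 30 with 1 library left out. Of 42 list counts of at least 3, 17 stayed within 1.5 times throughout. With 3 libraries a group and 7052369 to 8965504 counts each, small changes can be missed. In simulated counts with few changed genes, 28.4% of 67 changes of 1.5-fold, all in better expressed genes, were recovered. The share recovered in these data, where 10.0% of genes were called, was not measured. The cause of the dependence on settings was not tested.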

Other observations

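Notch genes changed in both directions. Of 22 tested, 2 were higher and 4 lower in the node, the latter 2 without spleen 922 or without node 926. The higher ones were Dtx4 and Notch1, the latter named after its values were seen, while Notch2, given above, fell. The Dtx4 call (adjusted p = 0.0166) was lost without spleen 926 (0.0763), node 926 (0.0531), spleen 950 (0.0528) or node 950 (0.0516). Mfng, a glycosyltransferase gene that tunes Notch ligand choice, fell from 105, 107 and 105 CPM in spleen libraries 922, 926 and 950 to 72.4, 67.3 and 72.3 CPM in node (log2 fold change -0.58, SE 0.13, adjusted p = 0.00581). The lysosome list was 8 higher and 0 lower of 30 (5 without spleen 922, 3 without spleen 926 or node 926), with the protease gene Ctsb going from 227, 221 and 246 CPM to 346, 519 and 461 CPM (log2 fold change 0.93, SE 0.17, adjusted p = 0.00139). The nucleoside transporter gene Slc29a1 rose from 16.5, 17.5 and 16.2 CPM to 44.1, 46.6 and 44.2 CPM (log2 fold change 1.42, SE 0.17, adjusted p = 1.17e-05), and Ung, the uracil glycosylase of antibody diversification, from 7.09, 6.97 and 10.2 CPM to 23.8, 18.4 and 23.3 CPM (log2 fold change 1.43, SE 0.29, adjusted p = 0.0026).

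Cytokine receptor chains were 0 higher and 5 lower of 24 (3 without spleen 922 or spleen 926, 2 without node 922 or spleen 950, 1 without node 926). Il5ra, the interleukin 5 receptor chain of B-1 cells, fell from 10.7, 12.3 and 7.70 CPM to 5.00, 2.42 and 4.29 CPM (log2 fold change -1.40, SE 0.30, adjusted p = 0.00407). Ltb, which encodes lymphotoxin beta, fell from 1101, 1133 and 1062 CPM to 496, 417 and 581 CPM (log2 fold change -1.14, SE 0.16, adjusted p = 8.51e-05). Klrb1c, listed as an NK cell marker, had 7 counts in spleen, all in library 922, and 136 in node, and its log2 fold change of 4.17 was 3.55 to 8.54 with 1 library left out, the highest without spleen 922, while the other 2 tested NK markers were not called. Outside the naming rule and chosen after their values were seen, Fibcd1 had 0 counts in spleen and 195 in node, at least 63.8-fold higher with 3 counts over the spleen group as the limit (95% counting interval from 51.4), and the repressor gene Gfi1 had 1 and 83, a ratio of 81.5 (95% counting interval 14.2 to 3256).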
